A study of Rattus norvegicus with 6 samples.

Results

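The genes described here mark B cells and antibody-secreting plasma cells, together with Pigr, the gene of the epithelial receptor that carries their antibodies into airway fluid. The list held 9 genes: Ms4a1, Cd79b, Cd22 and Blk of the B cell surface and its signalling, Jchain, Pou2af1, Cd38 and Irf4 of antibody secretion and B cell activation, and Pigr. Members were all probe sets annotated to 1 gene only, that gene being on the list. This gave 9 probe sets for 7 genes, among 31042 probe sets for 14217 named genes. Blk and Jchain had 2 probe sets each. Cd38 and Irf4 had no probe set under their names and were not analysed here.

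Lungs of 6 rats of the inbred Lewis strain were profiled, each rat on its own array. The 3 silica rats inhaled aerosolized silica dust at 6.2 mg/m3 for 6 h a day on 5 days a week over 6 weeks. The 3 control rats breathed filtered air under similar conditions. The sources used here do not state age, sex or how long after the last exposure the lungs were taken. Whole lung was homogenised, so a signal sums over all its cells, and more cells of a type and more RNA per cell cannot be told apart.

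B cells carry a surface antigen receptor whose signal passes through the CD79 chains and Src-family kinases. When activated they can become plasma cells, which secrete antibody. In mucosal tissue much of that antibody is polymeric IgA: the J chain joins its units, and the polymeric immunoglobulin receptor on epithelial cells binds the joined form and carries it to the airway surface. Silica dust is known to draw lymphocytes into the rodent lung.

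Of the 7 measured genes, Jchain showed the largest difference between silica and control lungs, and both of its probe sets had higher signals on every silica array. Cd22 and Pigr were also higher on every silica array, by smaller amounts. The defining B cell genes Ms4a1 and Cd79b had overlapping signals in silica and control lungs, as had Blk and Pou2af1. No member passed the test: 0 of 9 probe sets had a limma adjusted p under 0.05, where 1.08% of all probe sets passed in either direction. At an unadjusted p under 0.05 limma gave 3 of the 9, the 2 Jchain probe sets and Cd22, each higher in silica, against 9.35% of all probe sets that were higher at that level. Log2 fold changes are silica minus control on log2(signal + 16), given as estimate ± SE, and adjusted p-values are taken over all probe sets.

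**Figure D1:**
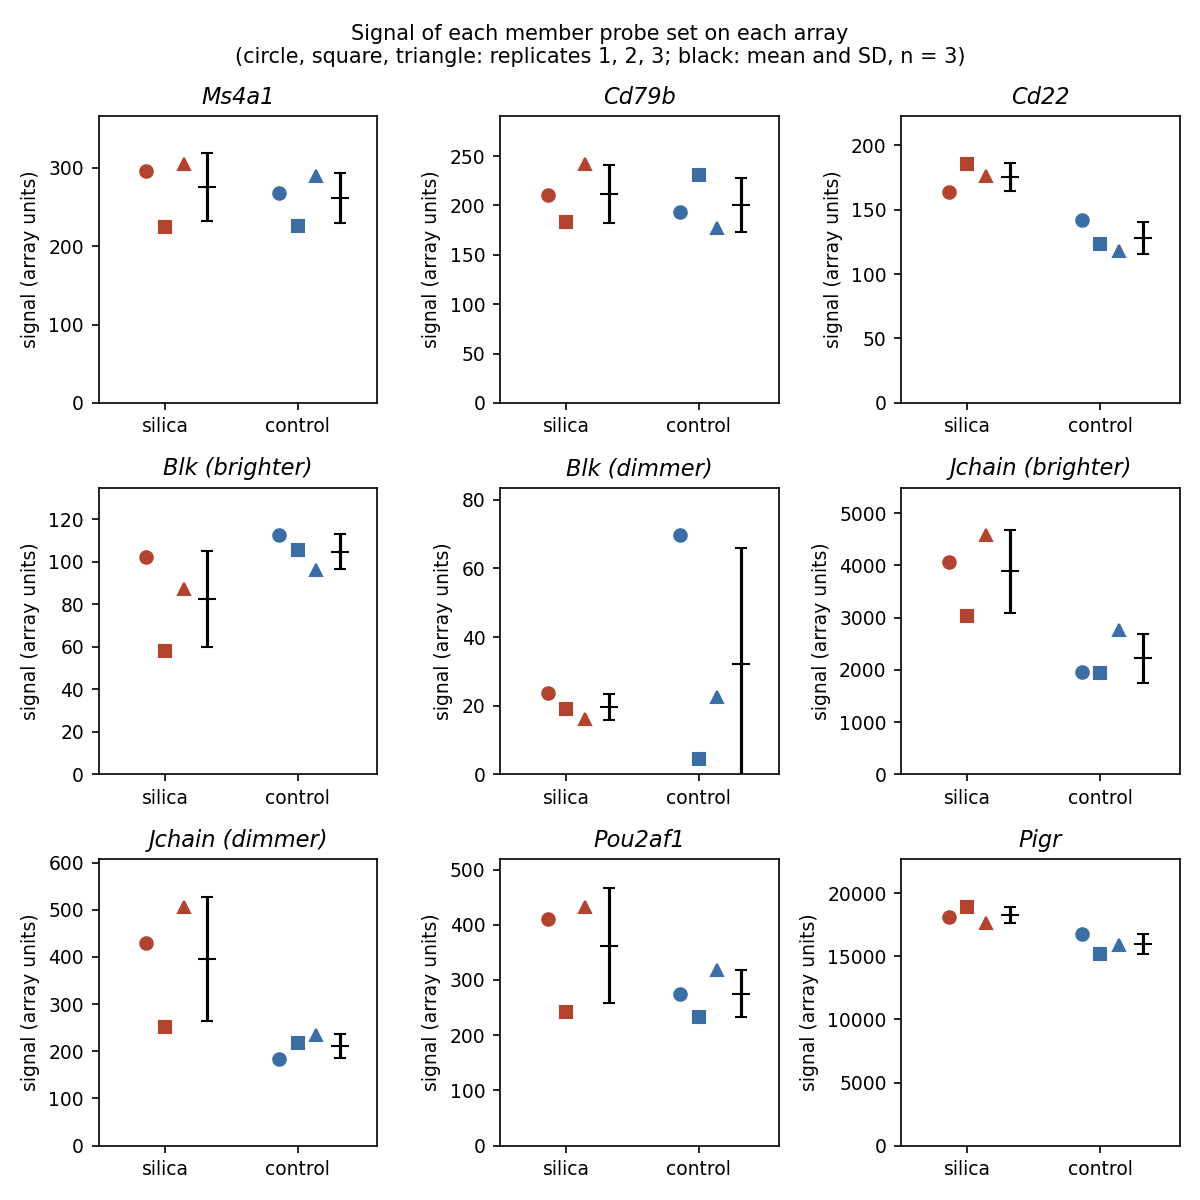
Signal (array units, linear axis from 0) of each of the 9 member probe sets on each array, silica left and control right, with the group mean and SD (n = 3) in black; the lower SD bar of the dimmer Blk probe set in control runs off the axis at 0. The silica points lie above the control points for Cd22, both Jchain probe sets and Pigr, and the groups overlap in the other 5 panels.

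Among genes of the B cell receptor and its surface regulators, Ms4a1 encodes CD20, a membrane protein of mature B cells that is lost in plasma cells. Its signals were 295.7, 225.1 and 304.9 in silica replicates 1, 2 and 3, against 267.9, 226.4 and 289.9 in the control replicates. The groups overlapped, and replicate 2 was the lowest in each. The log2 fold change was 0.07 ± 0.16 (limma adjusted p = 0.868), with an unadjusted 95% interval of -0.32 to 0.45.

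Cd79b, which encodes the beta signalling chain of the B cell receptor, had 210.2, 182.8 and 241.9 in silica lungs and 193.7, 230.6 and 176.7 in control lungs. The groups overlapped here too, with the highest control array above 2 of the silica arrays. Its log2 fold change was 0.07 ± 0.15 (limma adjusted p = 0.839), with an interval of -0.29 to 0.43. For both genes the sign of this small difference turned when single arrays were left out.

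Cd22, which encodes an inhibitory sialic acid-binding receptor of B cells, had 163.7, 185.4 and 176.1 in silica lungs, against 141.9, 123.7 and 118.1 in control lungs. Every silica array was above every control array, and the silica mean was 1.37 times the control mean. The log2 fold change was 0.41 ± 0.11 (limma unadjusted p = 0.00922, adjusted p = 0.153).

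Blk encodes a Src-family kinase of B cells. Its brighter probe set had 102.3, 58.0 and 87.0 in silica lungs and 112.3, 105.6 and 95.9 in control lungs. It was the only measured member with a negative log2 fold change by its brightest probe set (-0.32 ± 0.19, limma adjusted p = 0.441), and silica replicate 1 lay within the control range. The dimmer probe set ranged from 16.2 to 23.7 in silica lungs and from 4.5 to 69.6 in control lungs, with a log2 fold change of -0.20 ± 0.49. A single control array, replicate 1, set its sign: without it the value was 0.34.

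Among genes of antibody secretion, Jchain encodes the small polypeptide that joins the units of polymeric IgA and IgM. Its brighter probe set had 4056, 3021.5 and 4573.3 in silica lungs, against 1955.8, 1944.8 and 2757.4 in control lungs. The lowest silica array, replicate 2, was above the highest control array, replicate 3. The means were 3884 ± 790.1 in silica and 2219 ± 466 in control (SD, n = 3 each), 1.75 times higher in silica. The log2 fold change was 0.80 ± 0.21 (limma unadjusted p = 0.00886, adjusted p = 0.151), with an unadjusted 95% interval of 0.28 to 1.32. Of all probe sets, 97.5% had a lower log2 fold change.

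The dimmer Jchain probe set gave nearly the same estimate. It had 429.8, 251.0 and 506.2 in silica lungs and 183.6, 217.4 and 233.8 in control lungs, again with no overlap and with silica replicate 2 the lowest of the silica arrays. Its log2 fold change was 0.81 ± 0.26 (limma adjusted p = 0.206). The 2 probe sets measure the same transcript in the same animals and are not independent.

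Pou2af1 encodes OBF-1, a coactivator that works with octamer-binding factors at immunoglobulin promoters. It had 410.8, 242.2 and 432.4 in silica lungs and 273.8, 233.2 and 318.7 in control lungs. Silica replicates 1 and 3 were above every control array, while silica replicate 2 lay within the control range. The log2 fold change was 0.34 ± 0.24 (limma adjusted p = 0.518). Without silica replicate 2 it was 0.60 ± 0.16 (limma adjusted p = 0.206), the highest value with 1 array left out. Leaving out any other single array gave 0.20 to 0.45.

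Pigr encodes the polymeric immunoglobulin receptor, whose cut-off outer part stays bound to secreted IgA as the secretory component. It had 18149.3, 18918 and 17658 in silica lungs, against 16767.3, 15179.5 and 15913.2 in control lungs. The groups did not overlap, but the difference was small: the means were 18242 ± 635 in silica and 15953 ± 795 in control (SD, n = 3 each), a ratio of 1.14. The log2 fold change was 0.19 ± 0.10 (limma adjusted p = 0.357), and its unadjusted 95% interval, -0.04 to 0.43, included 0.

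**Figure D2:**
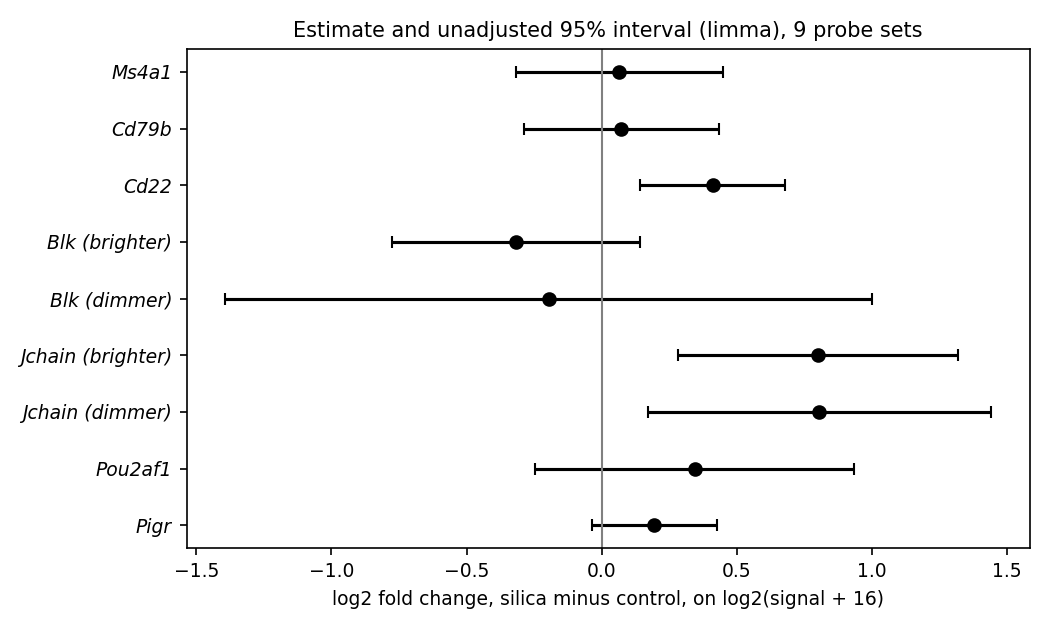
Log2 fold change (silica minus control, on log2(signal + 16)) of each of the 9 member probe sets, with its unadjusted 95% interval from limma. The intervals of Cd22 and both Jchain probe sets lie above 0; the other 6 include 0.

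By brightest probe set, 6 of the 7 genes had a positive log2 fold change, and their median was 0.19, against 0.02 over all 14217 genes. In 3 of the 7 the silica arrays were all above the control arrays, which was so for 18.7% of all genes. Silica replicate 2 stood lowest of the silica arrays in 5 of the 7 genes (Ms4a1, Cd79b, Blk, Jchain and Pou2af1), against 35.6% of all genes. It stood highest for Cd22 and Pigr. Relative to the control mean on the log2 scale, silica replicates 1, 2 and 3 were at 0.88, 0.46 and 1.06 for Jchain and at 0.56, -0.16 and 0.63 for Pou2af1. They were at 0.17, -0.20 and 0.22 for Ms4a1.

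Jchain was also set against each other member within arrays, as log2 Jchain minus log2 of the other gene, with the control mean set to 0. Jchain was chosen for this after its values were seen, so the differences are a description with no test. Against Ms4a1 this difference was 0.71, 0.66 and 0.84 in silica lungs and -0.20, 0.02 and 0.18 in control lungs. Against Cd79b it was 0.81, 0.58 and 0.80 in silica lungs and -0.12, -0.37 and 0.49 in control lungs. The silica arrays also stood apart against Blk and Pou2af1, with mean differences of 1.12 and 0.46. Against Cd22 and Pigr the groups overlapped, with silica replicate 2 within the control range. The 6 comparisons share the Jchain values.

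**Figure D3:**
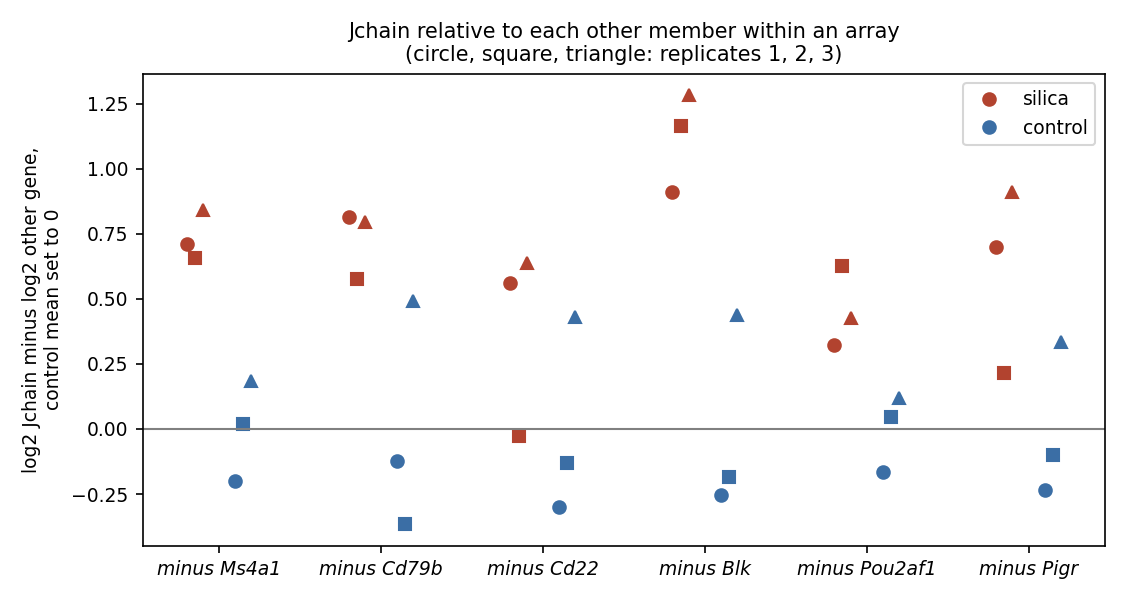
Log2 Jchain minus log2 of each other measured member on each array, shifted so that the control mean is 0 (vertical axis, log2 units), with silica points left of control points in each pair. Silica points lie above all control points against Ms4a1, Cd79b, Blk and Pou2af1, and silica replicate 2 (square) lies among the control points against Cd22 and Pigr.

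The promoters of the 3 genes whose arrays did not overlap (Jchain, Cd22 and Pigr) are shown for reference beside their values. They are the 250 bases before the RefSeq gene start in the rat assembly GRCr8, read 5′ to 3′ on the strand of the gene, and 5 of the 9 members had an entry in that table. Capitals mark exact matches, on either strand, to any of 4 motifs: the octamer ATGCAAAT bound with OBF-1, the E-box CACGTG, the PU.1 site GAGGAA and the TATA box TATAAA.
Jchain (chr14:19822726-19822975, + strand): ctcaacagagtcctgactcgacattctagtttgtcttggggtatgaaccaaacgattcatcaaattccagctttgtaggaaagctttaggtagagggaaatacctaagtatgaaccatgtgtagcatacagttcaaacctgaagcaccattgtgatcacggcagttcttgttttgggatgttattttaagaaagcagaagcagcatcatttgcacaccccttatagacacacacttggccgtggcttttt
Cd22 (chr1:95259731-95259980, - strand): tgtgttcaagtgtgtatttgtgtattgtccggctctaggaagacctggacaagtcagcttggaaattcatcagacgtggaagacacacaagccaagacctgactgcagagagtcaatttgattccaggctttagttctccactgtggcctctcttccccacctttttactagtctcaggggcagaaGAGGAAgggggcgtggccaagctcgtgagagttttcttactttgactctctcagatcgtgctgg
Pigr (chr13:44850932-44851181, + strand): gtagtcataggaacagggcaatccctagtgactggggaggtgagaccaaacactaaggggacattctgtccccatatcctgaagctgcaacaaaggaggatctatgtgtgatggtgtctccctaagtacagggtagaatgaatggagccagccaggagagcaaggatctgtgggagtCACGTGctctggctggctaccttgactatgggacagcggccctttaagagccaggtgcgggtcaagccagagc

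The Pigr window held 1 match, the E-box, starting 73 bases before the gene start. An E-box of this kind binds the factors USF1 and USF2. The same letters occurred in 5.59% of 33469 rat promoter windows of equal length. The Cd22 window held a PU.1 match starting 64 bases before the gene start, and 23.3% of windows held one. The Jchain window held no exact match to any of the 4 motifs. The octamer occurred in 1.56% of windows and the TATA box in 12.9%. A match describes the letters of the window and does not show binding.

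Other genes of the same pathways were described from 6 lists with 70 measured genes of 89, each by its brightest probe set. Over all genes, 1.55% were called higher and 0.12% lower by limma (adjusted p under 0.05). Of the 70 list genes, 3 rose and none fell: Fcgr2b, Cd83 and Irf8. No list gene passed with any 1 of the 6 arrays left out. By a limma unadjusted p under 0.05 the number was 29 of 70, all of them higher in silica, against 12.6% of all genes. The lists were chosen with earlier results of these data known, so counts from them are a description with no test.

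Among 21 measured genes of B lineage surface and signalling, 2 rose and none fell, and the median log2 fold change was 0.67. Fcgr2b, the inhibitory IgG receptor, which macrophages also carry, had 985, 1502.9 and 1124 in silica lungs and 327.1, 363.9 and 387.1 in control lungs (log2 fold change 1.68 ± 0.18, limma adjusted p = 0.0305). Cd83, a marker of activated B cells and mature dendritic cells, had 1573.3, 1289.4 and 1257 in silica lungs against 781.4, 790.1 and 698.9 in control lungs (0.84 ± 0.13, adjusted p = 0.0484). Inpp5d, the lipid phosphatase SHIP1 of blood cells, had a log2 fold change of 0.67 (limma adjusted p = 0.0563), and the chemokine receptor gene Ccr6 had 0.86 (adjusted p = 0.0773). Pik3cd was named after its values were seen. It passed in a dimmer probe set (0.74, limma adjusted p = 0.0467) and not in its brightest one (1.07, adjusted p = 0.134).

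The signals of 16 of these 21 genes were higher on every silica array, against 18.7% of all genes. They include the kinase genes Btk (log2 fold change 0.83) and Syk (0.59), which myeloid cells also use, and the adaptor gene Blnk (0.81). The Fc receptor-like gene Fcrla (0.31) and the tetraspanin gene Cd37 (0.40) are also among them. So are Cd180 (1.29), Pik3cd (1.07), Ly86 (0.85), Plcg2 (0.72), Cd40 (0.69), Pik3ap1 (0.49) and Ptpn6 (0.40). Which cells carried these signals was not tested. The other 5 overlapped between groups by their brightest probe set: Cr2, the complement receptor of B cells and follicular dendritic cells (0.52), the IgE receptor gene Fcer2 (0.20), the follicle-homing receptor gene Cxcr5 (0.17), the B cell scaffold gene Bank1 (-0.15) and the kinase gene Lyn (0.07). A dimmer Lyn probe set had 454.3, 532.4 and 463.1 in silica lungs against 338.1, 348.7 and 292.1 in control lungs, with no overlap (0.54, limma adjusted p = 0.106). In the dimmer probe sets of Fcrla (0.09), Cxcr5 (-0.25), Fcer2 (0.02) and Cr2 (-0.20 to 0.40) the groups overlapped. The genes of this paragraph were named after their values were seen.

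Of 6 measured B lineage transcription factor genes, 1 rose. Irf8, which acts in B cells and also in macrophages and dendritic cells, had 1040, 1270.3 and 1255.4 in silica lungs against 609.9, 585.3 and 636.4 in control lungs (log2 fold change 0.94 ± 0.12, limma adjusted p = 0.0399). Bcl6, the germinal centre repressor, had 0.36 (adjusted p = 0.199), Pou2f2, an octamer-binding partner of OBF-1, had 0.27 (0.354), and Bcl11a had 0.40 (0.356). A dimmer Bcl11a probe set had the opposite sign, -0.39, with overlapping groups (limma adjusted p = 0.541). Ebf1, an early B lineage factor named after its values were seen, had -0.16, and its dimmer probe sets had -0.07 and 0.25. The list median was 0.32.

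No gene passed among 15 measured genes of plasma cells and antibody secretion, whose median log2 fold change was 0.16. Mzb1, a chaperone of antibody assembly, had 353.6, 253.0 and 416.1 in silica lungs and 211.7, 173.1 and 212.7 in control lungs (0.71 ± 0.20, limma adjusted p = 0.163). As for Jchain, its groups did not overlap and silica replicate 2 was the lowest silica array. Tnfrsf17, the plasma cell survival receptor BCMA, was dim in both groups. It had 64.9, 56.2 and 55.4 in silica lungs against 33.0, 33.7 and 49.0 in control lungs (0.47, limma adjusted p = 0.191). In a dimmer Tnfrsf17 probe set the groups overlapped (0.53, limma adjusted p = 0.359). The signal peptidase gene Sec11c had 0.33 (limma adjusted p = 0.328) and Creb3l2 had -0.34 (adjusted p = 0.369). The plasma cell factor genes Prdm1 and Xbp1 and the surface marker gene Sdc1, named after their values were seen, had 0.05, 0.09 and 0.05. Lung epithelium also expresses Xbp1 and Sdc1.

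Of genes whose symbols name immunoglobulin chains, 3 had a probe set and none passed. Iglc1, a lambda light chain constant region gene, had 250.2, 334.5 and 255.2 in silica lungs and 123.3, 162.1 and 144.5 in control lungs (log2 fold change 0.89 ± 0.16, limma adjusted p = 0.0716). Its silica arrays were all above the control arrays, with replicate 2 the highest. Ighvl1 had 0.25 (limma adjusted p = 0.309). Ighl2 had 1158.6, 1164.9 and 2840.2 in silica lungs and 729.6, 981.2 and 1818.1 in control lungs (0.51 ± 0.47, adjusted p = 0.621), with replicate 3 far above the other arrays in both groups. Some immunoglobulin genes are closely similar in sequence, so a probe set may take signal from several.

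Among 10 measured genes of B cell survival and recruitment none passed, and the median was 0.09. Cxcl13, the chemokine that draws B cells into follicles through Cxcr5, had 747.4, 570.0 and 618.1 in silica lungs against 215.8, 107.2 and 310.8 in control lungs (log2 fold change 1.64 ± 0.35, limma adjusted p = 0.104). Tnfsf13, which encodes the plasma cell survival factor APRIL, had 3760, 3846.5 and 3621.2 in silica lungs and 2542.5, 2631.4 and 2402.5 in control lungs (0.57 ± 0.09, adjusted p = 0.0606). Both genes had every silica array above every control array. Ccl19, a lymphocyte-homing chemokine gene, had 1.22 (limma adjusted p = 0.147) and Il6, a plasma cell growth factor gene that was dim in both groups, had 0.92 (adjusted p = 0.173).

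Of 15 measured genes known from epithelial cells as regulators of Pigr, none passed, and the median was 0.18. Irf1, an interferon-induced factor, had 2803.7, 5151.8 and 2733.3 in silica lungs and 1521.5, 1436.7 and 1533.3 in control lungs (log2 fold change 1.18 ± 0.26, limma adjusted p = 0.105). The interleukin 17 receptor gene Il17ra had 0.56 (limma adjusted p = 0.118), the Toll-like receptor adaptor gene Myd88 had 0.41 (0.185) and the TNF receptor gene Tnfrsf1a had 0.30 (0.188).

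**Figure D4:**
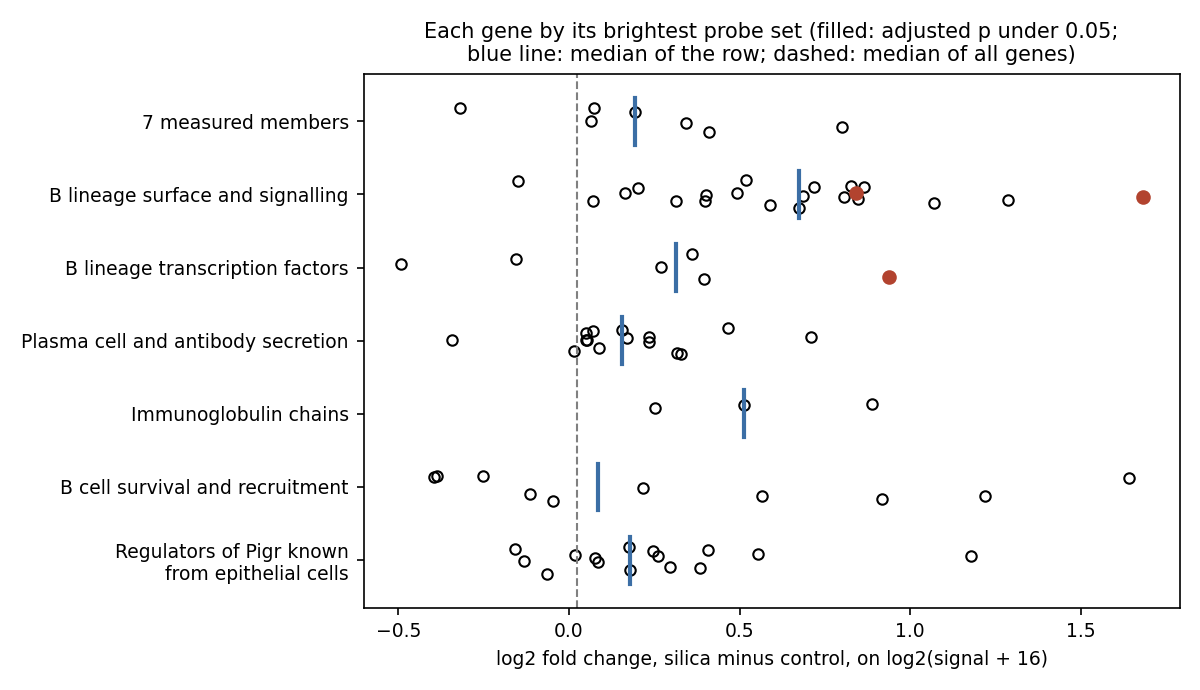
Log2 fold change (silica minus control, on log2(signal + 16)) of each measured member and of each gene of the 6 lists by its brightest probe set; filled points passed a limma adjusted p of 0.05, blue lines are row medians and the dashed line is the median of all genes. The 3 filled points are Fcgr2b and Cd83 in the surface and signalling row and Irf8 in the transcription factor row, and no member is filled.

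Markers of the cell types that could carry these transcripts were set beside them. Of 7 B cell markers 4 had a probe set (Ms4a1, Cd79b, Cd22 and Blk). By brightest probe set their lowest signal was 58.0 (Blk, silica replicate 2). Cd22 and Blk were in the dimmer 50%: of all probe sets, 49.7% and 41.6% had a lower mean log2 signal. The summed signal of the 4 markers was 651 to 810 in silica lungs, against 681 to 716 in control lungs, so the groups overlapped. The 5 plasma cell markers summed to 7360 to 9504 in silica lungs against 6054 to 6917 in control lungs, a sum that Jchain and Sdc1 dominate. The 9 T cell markers summed to 5917 to 7334 in silica lungs against 2956 to 3497 in control lungs, and 6 of the 9 rose, none fell. Of 3 measured dendritic cell markers 2 rose (Clec9a and Itgax). The sum of the 3 was 3163 to 3776 in silica lungs against 1771 to 2073 in control lungs. Itgax, with means of 3195 in silica and 1784 in control lungs, makes up most of that sum. Of 4 measured macrophage markers 1 rose (Cd68), with sums of 11492.5 to 12391 in silica lungs and 9032 to 9519 in control lungs. Of 6 NK cell markers 1 rose (Nkg7), and all 6 were higher on every silica array, against 18.7% of all genes. The NK cell sum was 5820 to 7948 in silica lungs against 3036 to 3601 in control lungs. None of 3 neutrophil markers passed, with sums of 9236 to 15855 in silica lungs and 5224 to 6828.5 in control lungs. None of 4 alveolar type 1 markers passed, but all 4 were lower on every silica array, against 1802 of all 14217 genes. The alveolar type 1 sums were 44413 to 47857 in silica lungs and 53266 to 55851 in control lungs. None of 3 endothelial markers passed, with sums of 12046.5 to 14326 in silica lungs and 13952 to 14512 in control lungs. The macrophage markers Csf1r and Mrc1 overlapped between groups (log2 fold changes 0.10 and 0.03). Clec9a, Itgax and Cd68 were higher in silica lungs together with Fcgr2b, Cd83 and Irf8, and their part in those results was not tested.

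Beside Pigr, 5 measured markers of airway secretory epithelium summed to 32586 to 39924 in silica lungs and 32561 to 41212 in control lungs, and none passed. Scgb1a1, the club cell secretory protein gene, makes up most of that sum. Muc1, a membrane mucin gene, was higher on every silica array (log2 fold change 0.46, limma adjusted p = 0.157), as Pigr was, and its part in the Pigr result was not tested. The groups overlapped for the other markers of that list: Scgb3a1 (-0.65), Scgb1a1 (-0.13), Muc5b (-0.003) and Bpifa1 (0.53). The 6 alveolar type 2 markers summed to 91736 to 108295 in silica lungs and 98687 to 103789 in control lungs, and none passed. Among them, named after their values were seen, Abca3 was higher on every silica array (0.22, limma adjusted p = 0.355) and Sftpb lower (-0.18, 0.430). The groups overlapped for the others, and in the dimmer probe sets of Abca3 (0.12) and Sftpb (0.05). The part of Abca3 in the Pigr result was not tested. The 3′ to 5′ signal ratio of the beta-actin and GAPDH control probe sets, a measure of RNA quality, was 1.67, 1.50 and 1.15 on the log2 scale in silica replicates 1 to 3 and 1.23, 1.20 and 0.996 in the control replicates. With this ratio as a covariate the log2 fold change of Jchain was 1.05 ± 0.26 (limma adjusted p = 0.328), that of Cd22 0.40 ± 0.15 (0.481) and that of Pigr 0.16 ± 0.13 (0.727).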

How the data were processed

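Per the labels' protocols, RNA was isolated from homogenised lung and transcribed in vitro into cRNA carrying biotin. The authors deposited a signal intensity on a linear scale for each probe set on each array. How the probes were summarised is not stated in the sources used here. Each array had the same mean, 499.997, after trimming 2% at each end, so each was scaled by 1 factor. No detection calls were used. Precision is limited by the number of arrays.

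Of 31099 probe sets, 57 array controls were left out. Names came from the platform annotation, updated by gene identifier to RefSeq (GRCr8): 20826 probe sets had 1 gene, 436 several and 9780 no listed gene. Silica and control were compared on log2(signal + 16) with limma 3.58.1 in R 4.3.3 (lmFit, eBayes, Benjamini-Hochberg over 31042 probe sets, threshold 0.05). The fit was tested on simulated data, with a required recovery set only for changes larger than those of the members. That test does not show that changes of the members' size would be found. Groups and replicate numbers come from the sample titles, and the study's design text gives 3 rats per group. Members and lists were chosen with earlier results of these data known. The genes named are all members, the 4 smallest p-values in each list and every list gene that passed; others are said to be named after their values were seen. There were 16 alternatives: scaling, a brightness filter, the spread model, pseudocounts, array weights, a replicate block, RNA quality and arrays left out.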

Additional observations from a re-analysis of the deposited data

How the results depend on the processing

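Of 141 recomputed member values, 133 kept their direction and their side of the threshold. Cd22 and Blk lay outside the brighter 50% of probe sets and have no value under that filter. Jchain (brighter probe set) passed under 2 of 16 alternatives, with the brighter 50% of probe sets (limma adjusted p = 0.0354) and with an intensity trend and robust spread (0.0205). Its adjusted p lay between 0.0205 and 0.337 over all 16 alternatives. The signs of Ms4a1, Cd79b and the dimmer Blk probe set turned: with 1 array left out they ranged from -0.029 to 0.20, from -0.021 to 0.17 and from -0.69 to 0.34, with Ms4a1 at -0.010 without silica replicate 3 and -0.029 without control replicate 2, and Cd79b at -0.021 without silica replicate 3 and -0.0067 without control replicate 3. Cd79b was at -0.0062 without control replicate 3 and silica replicate 1 together.

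The number of probe sets past the threshold was 335, of list genes 3 and of member probe sets 0. With the brighter 50% these were 1675, 20 and 1, and with the trend and robust spread 1862, 24 and 1. With pseudocount 64 they were 919, 15 and 0, and with pseudocount 1 43, 0 and 0. With the RNA quality covariate, and without control replicate 3 and silica replicate 1 together, each was 0, where limma gave 3184 and 3590 probe sets at an unadjusted p under 0.05. With 1 array left out, 0 to 12 probe sets and 0 list genes passed (4024 to 5427 probe sets at an unadjusted p under 0.05). The causes were not tested. With the replicate number as a block, 1 probe set, 0 list genes and 0 member probe sets passed, and Jchain had 0.80 ± 0.13 (limma adjusted p = 0.166). Same-numbered arrays correlated at 0.09, 0.04 and 0.09 in their deviations from the group means, and differently numbered arrays at -0.08 to -0.002. Each array thus correlated best with its own number. These small values do not settle whether the numbers are pairs, and the main fit did not take them as pairs.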
